A study of Homo sapiens with 21 samples.

Results

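Transcripts of 10 genes for chaperones and cochaperones of the endoplasmic reticulum (ER) were followed in 21 RNA-seq libraries: HSPA5, DNAJB11, DNAJC3, SDF2L1, HYOU1, MANF, CRELD2, HSP90B1, CALR and CANX. They were chosen by symbol, with earlier results of these data known, and each matched 1 Ensembl ID among the 60671 genes of the count table. The study asked which proteins are newly made when protein folding in the ER fails, and whether such stress alters RNA splicing. OCI-AML3, an established acute myeloid leukaemia line grown in RPMI medium, was untreated at 0 h, or received DMSO or 1 μg/mL tunicamycin for 4 h or for 24 h. HEK293T, a line derived from embryonic kidney and grown in DMEM medium, received DMSO or 1 μg/mL tunicamycin for 24 h. Tunicamycin stops N-linked glycosylation, by which sugar chains are attached to proteins entering the ER. DMSO served as the vehicle. Each of the 7 groups had 3 replicates. The labels do not say whether these were separate cultures, so the p-values measure only the spread between these samples, which may be technical. The labels name no genetic change in any group. Cell line and culture medium cannot be told apart.

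Proteins that enter the ER fold there with the help of resident chaperones. HSPA5 (BiP) is the Hsp70 of the ER and binds exposed hydrophobic stretches in cycles of ATP hydrolysis. J proteins such as DNAJB11 and DNAJC3 start the cycle, the Hsp70-related HYOU1 (GRP170) ends it by exchanging the nucleotide, and SDF2L1 works in complex with DNAJB11. HSP90B1 (GRP94) is the Hsp90 of the ER. CALR and CANX are lectins that hold glycoproteins through a trimmed sugar chain, so that their main way of finding clients is what tunicamycin removes. MANF binds HSPA5 and can be secreted, and CRELD2 is a secreted ER protein with disulphide-related activity. CANX spans the ER membrane, with its lectin domain in the lumen, and the other 9 are soluble. When unfolded proteins gather in the ER, the unfolded protein response (UPR) raises many of these genes through the transcription factors ATF6 and XBP1. These bind the ER stress element (ERSE), in which a CCAAT box, bound by the factor NF-Y, lies 9 bases before CCACG, or the shorter ERSE-II, in which ATTGG and CCACG are separated by 1 base.

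Promoter sequences of the 10 genes were searched for these letters, since they are the feature through which the genes are known to be linked. RefSeq promoters on GRCh38.p14, each 300 bases long (250 bases before to 50 after the start), were available for all 10 genes. An exact match to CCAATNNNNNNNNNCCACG (ERSE) or ATTGGNCCACG (ERSE-II) on either strand was present in 7 of the 10 genes, 5 with ERSE and 2 with ERSE-II. Of all 35116 promoters of this length, 27 (0.0769%) held the first, 19 (0.0541%) the second and 46 (0.131%) either. The short parts alone were common. CCACG was found in 38.1% of all promoters, and CCAAT in 34.6%. TGACG, a core shared by sites for CREB-type factors, was found in 24.6%. The stretches below run 5′ to 3′ in the direction of each gene, with the 2 outer parts of each element in capitals. An element on the opposite strand appears as CGTGG followed by ATTGG, or as CGTGG followed by CCAAT.
HSPA5, chr9:125241361-125241439, minus strand: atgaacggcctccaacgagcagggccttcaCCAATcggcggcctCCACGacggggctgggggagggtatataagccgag
HSP90B1, chr12:103930186-103930369, plus strand: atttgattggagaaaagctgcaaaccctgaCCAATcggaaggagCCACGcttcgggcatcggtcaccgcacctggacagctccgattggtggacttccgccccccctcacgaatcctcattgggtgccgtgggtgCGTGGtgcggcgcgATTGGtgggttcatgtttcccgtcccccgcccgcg
HYOU1, chr11:119057244-119057420, minus strand: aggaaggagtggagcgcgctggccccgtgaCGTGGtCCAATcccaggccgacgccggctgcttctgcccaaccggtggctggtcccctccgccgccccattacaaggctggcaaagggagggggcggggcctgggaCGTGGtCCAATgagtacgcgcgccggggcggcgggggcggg
CALR, chr19:12938359-12938432, plus strand: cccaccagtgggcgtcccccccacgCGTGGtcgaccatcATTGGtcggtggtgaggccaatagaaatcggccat
CANX, chr5:179698748-179698826, plus strand: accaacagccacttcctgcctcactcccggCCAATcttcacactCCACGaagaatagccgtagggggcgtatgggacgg
SDF2L1, chr22:21642084-21642154, plus strand: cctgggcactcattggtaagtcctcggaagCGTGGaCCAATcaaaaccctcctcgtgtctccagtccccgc
CRELD2, chr22:49918524-49918602, plus strand: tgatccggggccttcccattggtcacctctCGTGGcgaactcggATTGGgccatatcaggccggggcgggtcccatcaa

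Only exact matches were searched for, so elements that differ in a letter were not counted in any of the genes. The single exact ERSE of HSPA5 lay 66 to 48 bases before the start and that of CRELD2 80 to 62 bases before it. HSP90B1 held 2 exact ERSEs, at 194 to 176 and at 89 to 71 bases. HYOU1 held 2 exact copies of ERSE-II, at 185 to 175 and at 79 to 69 bases. The element of CALR lay 225 to 207 bases before the start, and that of SDF2L1 188 to 178 bases before it. CANX has 4 promoter entries that differ in their start, and 3 of them cover its ERSE, which in the entry shown lay at 151 to 133 bases. CRELD2 shares its promoter with ALG12, a mannosyltransferase gene that starts close by on the other strand, and the same bases lay 134 to 116 bases before the start of ALG12. The windows of DNAJB11, DNAJC3 and MANF held no exact match, which says only that these letters are not in these 300 bases.

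Library totals ran from 13838480 to 19961819 counts (median 16657733). Levels are given as counts per 1000000 (CPM) after TMM scaling, a normalisation that sets aside the most changed genes. The smallest count of any member in any library was 408, for DNAJC3, so counting error was small for all 10. A gene entered the tests if 8 or more libraries had 1 CPM or more of it, which left 14012 genes and kept all 10 members. The labels were checked against marker genes. All 7 myeloid markers were above 1 CPM in OCI-AML3 (813 to 1012 CPM in sum) and 1 of 7 in HEK293T (88.1 to 129 CPM), where PTPRC, MPO and CSF3R were at 0. All 6 HEK293T markers were above 1 CPM in HEK293T (162 to 192 CPM in sum), and 1 of 6 in OCI-AML3 (3.26 to 5.34 CPM). These are bulk samples, in which fewer cells of a type and less RNA per cell cannot be told apart.

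Tunicamycin raised these genes in both cell lines. At 24 h all 10 rose more than 2-fold in OCI-AML3 and in HEK293T, and at 4 h in OCI-AML3 9 of 10 did, the exception being CANX. A gene was called higher or lower when edgeR's p, adjusted over all genes tested by the method of Benjamini and Hochberg, was at most 0.05 and the change exceeded 2-fold. In the same comparisons 3.45% of all genes were called higher at 4 h, 4.05% at 24 h and 1.58% in HEK293T. Because the 10 genes were chosen with earlier results of these data known, the shares of all genes only give a scale. In each comparison all 3 tunicamycin libraries were above all 3 DMSO libraries for all 10 genes, which held for 22.9%, 25.0% and 23.4% of all genes tested. On the log2 scale the 10 genes had a median change of 2.29 at 4 h, 3.06 at 24 h and 1.93 in HEK293T, beside −0.02, −0.01 and −0.01 over all genes. None of the 10 was called lower in any of the 3, beside 1.47%, 2.26% and 0.55% of all genes.

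**Figure D1:**
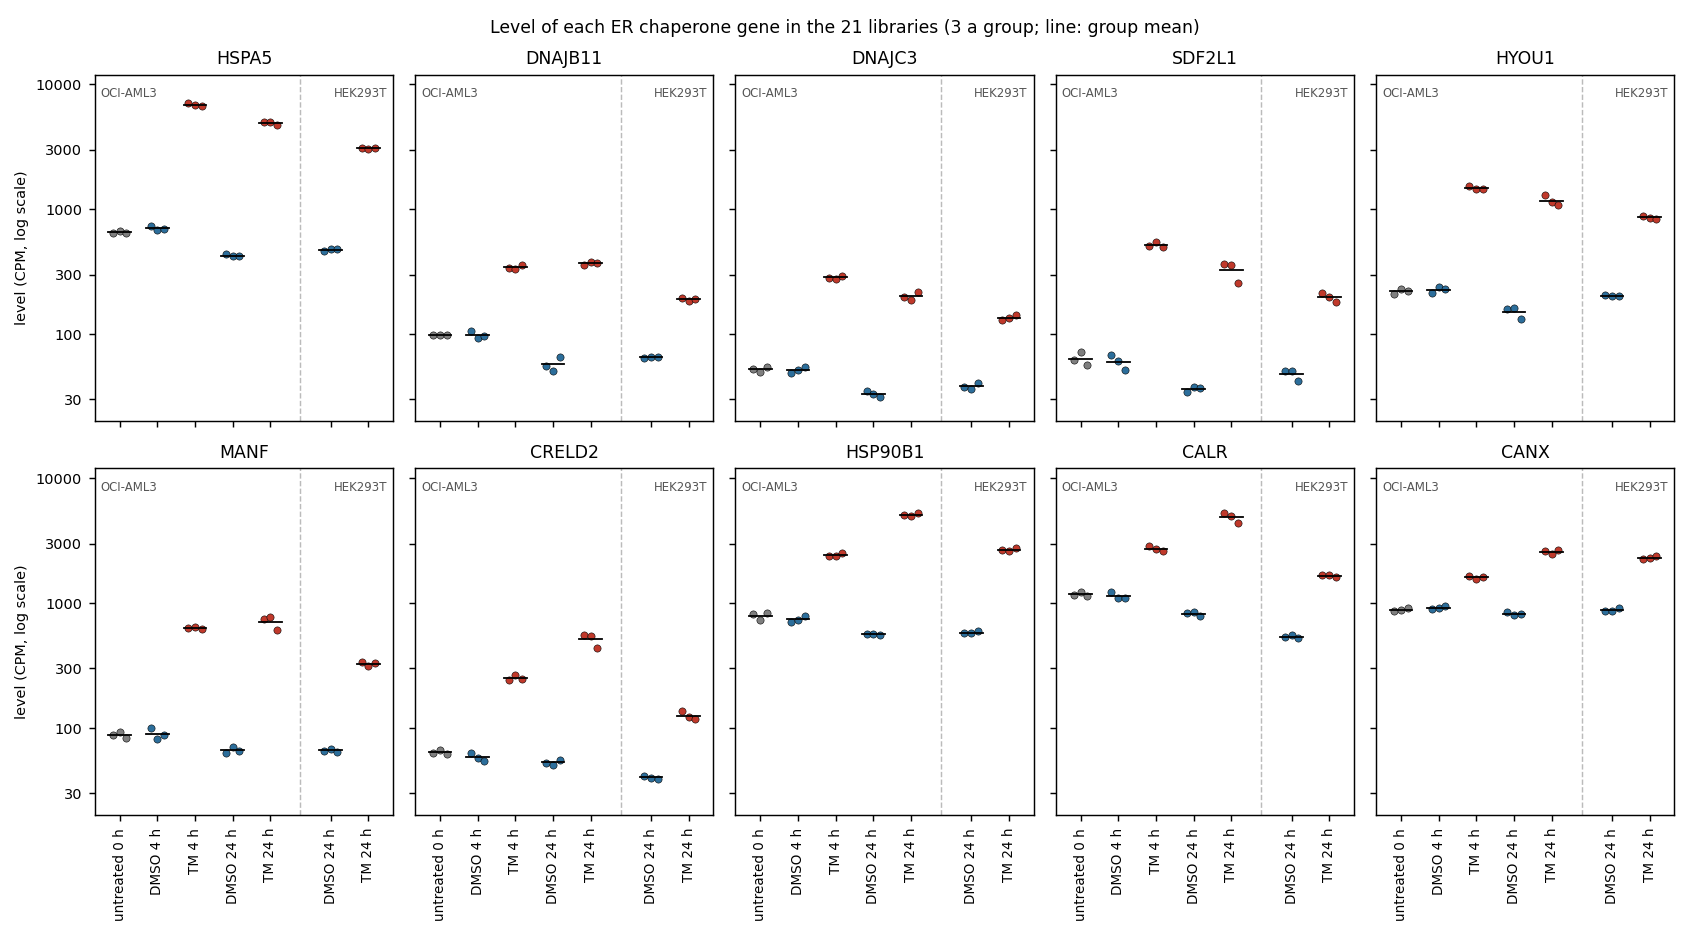
Level of each gene in every library (y axis, CPM on a log scale that is the same in all panels, so that equal distances are equal fold changes), with points for the 3 replicates of each group and a line for their mean. Red points are tunicamycin, blue points DMSO and grey points untreated cells, and for all 10 genes every red point lies above every blue point of the same line and time.

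HSPA5, the ER's Hsp70, rose most of the 10 in each comparison. Its level was 647, 674 and 645 CPM in untreated OCI-AML3 cells and 734, 686 and 691 CPM after 4 h of DMSO. After 4 h of tunicamycin it was 7056, 6801 and 6749 CPM. After 24 h it was 436, 419 and 424 CPM with DMSO and 4994, 5011 and 4712 CPM with tunicamycin. In HEK293T it was 465, 477 and 483 CPM with DMSO and 3114, 3044 and 3113 CPM with tunicamycin. The replicates of a group lay close together and no tunicamycin library came near a DMSO library. The log2 fold change was 3.29 ± 0.06 (SE) at 4 h, 3.52 ± 0.06 at 24 h and 2.701 ± 0.06 in HEK293T, with adjusted p of 6.8e-21, 3.9e-21 and 2.9e-19. Ranked by the size of the rise among all genes tested, it was number 31 at 4 h, 20 at 24 h and 32 in HEK293T. The gene lies at chr9:125234853-125241382 on the minus strand (GRCh38, GENCODE release 44) and overlaps no other gene, and its pseudogene HSPA5P1 held 0 counts.

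The partners of HSPA5 among the genes chosen here rose too, each by less than HSPA5 itself in each comparison. DNAJB11, a J protein that binds unfolded clients and hands them to HSPA5, was at 105, 92.4 and 97.4 CPM after 4 h of DMSO and at 336, 332 and 359 CPM after 4 h of tunicamycin. At 24 h it was at 55.4, 51.1 and 66.2 CPM with DMSO and at 356, 380 and 371 CPM with tunicamycin. In HEK293T it went from 64.6, 65.4 and 65.5 CPM to 195, 184 and 192 CPM. Tunicamycin and DMSO libraries did not overlap, whereas the tunicamycin libraries of 4 h and 24 h did, above a DMSO level that was lower at 24 h. The log2 fold changes of DNAJB11 were 1.80 ± 0.07, 2.68 ± 0.08 and 1.54 ± 0.07. The gene lies at chr3:186567403-186585800, and ENSG00000283149, annotated on the same strand, shares 451 of its 1640 exon bases (27.5%) and had counts of 2.22 to 7.12% of those of DNAJB11. TBCCD1 overlaps DNAJB11 on the other strand without sharing exon bases in the reference transcripts, and had 4.24 to 28.7% of its counts.

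DNAJC3 (p58IPK), a J protein also known as an inhibitor of the UPR kinase PERK, was the lowest of the 10 per kilobase of transcript in all 7 groups. Its level was 48.4, 51.5 and 54.1 CPM after 4 h of DMSO and 283, 276 and 294 CPM after 4 h of tunicamycin. By 24 h the DMSO libraries held 34.9, 33.2 and 31.4 CPM and the tunicamycin libraries 199, 188 and 217 CPM. HEK293T had 37.8, 36.1 and 41.0 CPM with DMSO and 129, 136 and 142 CPM with tunicamycin. All 3 groups of tunicamycin libraries were clear of their DMSO libraries, with log2 fold changes of 2.47 ± 0.07, 2.60 ± 0.07 and 1.82 ± 0.07.

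SDF2L1, the partner of DNAJB11 that keeps clients from aggregating, had the widest relative spread between replicates of the 10 (median coefficient of variation 10.3%). It was at 67.8, 60.8 and 52.0 CPM after 4 h of DMSO and at 505, 549 and 502 CPM after 4 h of tunicamycin. The 24 h values were 34.6, 38.0 and 37.4 CPM with DMSO and 362, 359 and 256 CPM with tunicamycin, where replicate 3 was low. The HEK293T values were 50.6, 50.6 and 42.1 CPM with DMSO and 215, 196 and 180 CPM with tunicamycin. The log2 fold changes of SDF2L1 were 3.11 ± 0.13, 3.15 ± 0.13 and 2.05 ± 0.12, so at 4 h it was second only to HSPA5 among the 10.

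HYOU1, the nucleotide exchange factor, had the pattern of HSPA5 with smaller fold changes. It ranged from 212 to 237 CPM after 4 h of DMSO and from 1447 to 1543 CPM after 4 h of tunicamycin. At 24 h it ranged from 132 to 161 CPM with DMSO and from 1084 to 1293 CPM with tunicamycin, and in HEK293T from 202 to 204 CPM and from 831 to 891 CPM. The log2 fold changes were 2.72 ± 0.08, 2.97 ± 0.08 and 2.08 ± 0.08. On the other strand lies ENSG00000255114, an annotated gene that covers 667 of the 4598 exon bases of HYOU1 (14.5%). The sources used here do not say whether reads were counted by strand. The counts of that gene were 1.87 to 2.60% of those of HYOU1 in all 21 libraries.

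MANF and CRELD2 are the secreted members, and the fold changes of both were larger at 24 h than at 4 h in OCI-AML3. MANF, a small protein that stabilises HSPA5 bound to clients, was at 100.6, 81.7 and 87.2 CPM after 4 h of DMSO and at 628, 643 and 620 CPM after 4 h of tunicamycin. After 24 h these were 63.0, 70.9 and 65.8 CPM with DMSO and 743, 779 and 614 CPM with tunicamycin. In HEK293T cells they were 65.2, 68.3 and 64.8 CPM and 337, 315 and 330 CPM. At 24 h the DMSO libraries of the 2 lines overlapped and the tunicamycin libraries did not. The log2 fold changes of MANF were 2.81 ± 0.09, 3.42 ± 0.09 and 2.31 ± 0.08, second to HSPA5 among the 10 at 24 h and in HEK293T.

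CRELD2 was at 63.4, 57.2 and 54.2 CPM after 4 h of DMSO and at 242, 264 and 247 CPM after 4 h of tunicamycin. At 24 h it was at 52.6, 51.0 and 55.8 CPM with DMSO and at 555, 544 and 441 CPM with tunicamycin. In HEK293T the levels were 41.3, 40.0 and 39.3 CPM with DMSO and 136, 122 and 118 CPM with tunicamycin. In OCI-AML3 the 24 h libraries with tunicamycin thus lay well above those at 4 h, and all 3 HEK293T libraries with tunicamycin lay below both. Replicate 3 of the 24 h tunicamycin group was the lowest of its group for CRELD2, MANF, SDF2L1, CALR, HYOU1 and HSPA5, and the highest for HSP90B1, CANX and DNAJC3. The log2 fold changes were 2.11 ± 0.08, 3.27 ± 0.09 and 1.64 ± 0.08. ALG12 overlaps CRELD2 on the other strand without sharing exon bases in the reference transcripts, and its counts were 15.4 to 85.3% of those of CRELD2.

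HSP90B1, which folds a set of clients that includes Toll-like receptors and integrins, gained most between 4 h and 24 h. It was at 710, 735 and 790 CPM after 4 h of DMSO and at 2375, 2385 and 2512 CPM after 4 h of tunicamycin. The 24 h libraries held 562, 571 and 559 CPM with DMSO and 5093, 4990 and 5309 CPM with tunicamycin. Those of HEK293T held 577, 576 and 593 CPM with DMSO and 2645, 2637 and 2783 CPM with tunicamycin, close to the 4 h level of OCI-AML3. The log2 fold change of HSP90B1 went from 1.70 ± 0.06 at 4 h to 3.19 ± 0.07 at 24 h, and it was 2.21 ± 0.07 in HEK293T. Its pseudogenes HSP90B3P and HSP90B2P held 0 counts and 0 to 5 counts. UQCC6, on the other strand, covers 282 of its 2782 exon bases (10.1%) and had 0.0502 to 3.00% of its counts.

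In OCI-AML3 the lectins had the smallest fold changes of the 10. CALR, the soluble lectin, was at 1166, 1220 and 1143 CPM in untreated OCI-AML3 cells. It was at 1223, 1092 and 1101 CPM after 4 h of DMSO and at 2851, 2735 and 2625 CPM after 4 h of tunicamycin. After 24 h it was at 828, 858 and 785 CPM with DMSO and at 5272, 4982 and 4378 CPM with tunicamycin. HEK293T libraries held 537, 552 and 527 CPM with DMSO and 1678, 1677 and 1622 CPM with tunicamycin. Tunicamycin and DMSO libraries did not overlap, and CALR was highest after 24 h of tunicamycin in OCI-AML3. The log2 fold changes were 1.27 ± 0.07, 2.57 ± 0.07 and 1.62 ± 0.07.

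CANX, the membrane-bound lectin, had the smallest change in each comparison. It was at 898, 914 and 955 CPM after 4 h of DMSO and at 1664, 1560 and 1611 CPM after 4 h of tunicamycin. By 24 h it was at 853, 801 and 824 CPM with DMSO and at 2602, 2473 and 2674 CPM with tunicamycin. In HEK293T CANX was at 861, 865 and 921 CPM with DMSO and at 2279, 2313 and 2368 CPM with tunicamycin. At 4 h the libraries did not overlap, and the log2 fold change of 0.81 ± 0.06 had an adjusted p of 1.8e-10, so the change was beyond the spread between replicates but under 2-fold. The 24 h value was 1.65 ± 0.06 and that in HEK293T was 1.40 ± 0.06, both past the 2-fold threshold.

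**Figure D2:**
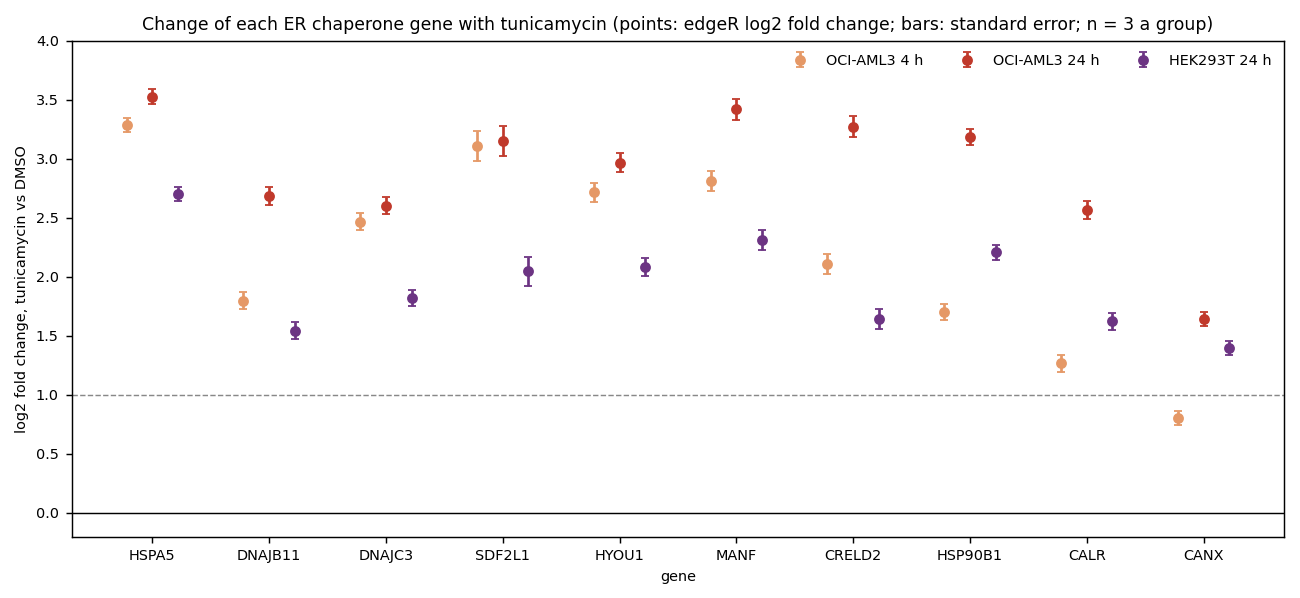
Log2 fold change of tunicamycin against DMSO (y axis) for each of the 10 genes (x axis) in OCI-AML3 at 4 h and 24 h and in HEK293T at 24 h, with bars for the standard error. The dashed line marks the 2-fold threshold, which CANX at 4 h (0.81) does not reach, and the values run up to 3.52 for HSPA5 at 24 h.

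Did the response grow between 4 h and 24 h in OCI-AML3? The difference of the 2 tunicamycin effects was tested as an interaction, each effect against the DMSO libraries of its own time. It was positive and called (adjusted p of at most 0.05) for 7 of 10 genes, beside 15.1% of all genes (35.3% were called in either direction). HSP90B1 had the largest difference on the log2 scale, 1.48 ± 0.09, followed by CALR at 1.3 ± 0.10, CRELD2 at 1.17 ± 0.12, DNAJB11 at 0.88 ± 0.10, CANX at 0.84 ± 0.08 and MANF at 0.61 ± 0.12. The difference for HSPA5 was 0.24 ± 0.08 (adjusted p = 0.025), and it was 0.25 ± 0.11 for HYOU1 (0.072), 0.14 ± 0.10 for DNAJC3 (0.30) and 0.04 ± 0.17 for SDF2L1 (0.88). The call for HSPA5 was lost without tunicamycin 4 h replicate 2 (0.23, adjusted p = 0.053) or replicate 3 (0.23, adjusted p = 0.052), without the filter (0.25, 0.094) and with the compared groups alone (0.28, 0.079). HYOU1 passed without any of 5 libraries: DMSO 4 h replicate 1 (0.32, adjusted p = 0.02), DMSO 24 h replicate 1 (0.32, 0.037) or 2 (0.33, 0.026), and tunicamycin 24 h replicate 2 (0.30, 0.039) or 3 (0.33, 0.021). It also passed under each of the 3 other TMM or library-size scalings and with both uses of DESeq2, with adjusted p from 0.015 to 0.044.

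The levels with tunicamycin at 24 h were also compared directly with those at 4 h. HSP90B1 (log2 difference 1.08 ± 0.06), CRELD2 (1.03 ± 0.08), CALR (0.83 ± 0.07) and CANX (0.68 ± 0.06) were higher at 24 h, 4 of 10 genes beside 27.2% of all genes. SDF2L1 (−0.67 ± 0.11), DNAJC3 (−0.50 ± 0.07), HSPA5 (−0.49 ± 0.06) and HYOU1 (−0.34 ± 0.07) were lower at 24 h, 4 of 10 beside 32.0% of all genes. MANF (0.17 ± 0.08, adjusted p = 0.062) and DNAJB11 (0.11 ± 0.07, adjusted p = 0.18) were not called. MANF was called without tunicamycin 24 h replicate 3 (0.30, adjusted p = 0.0015) and in 5 other settings, with adjusted p from 0.0082 to 0.035. DNAJB11 was called with DESeq2 size factors (0.18, adjusted p = 0.031) and with the DESeq2 Wald test (0.18, 0.015).

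The DMSO levels moved as well. None of the 10 genes was called between DMSO at 4 h and untreated cells, and of all genes 0.0% were called in edgeR. At an unadjusted p under 0.05 there were 0 of the 10 members (the lowest p was 0.084) and 1160 of all genes. limma voom called 0 genes and the DESeq2 Wald test 16, and edgeR called 95 without the filter and 26 without DMSO 4 h replicate 1. Between 4 h and 24 h of DMSO, 9 of 10 genes were lower at 24 h, beside 21.6% of all genes. Of the chaperones listed further below, 12 of 14 cytosolic and 4 of 6 mitochondrial ones were lower too, and none higher. Of 7 client-specific ER chaperones 2 were higher and none lower. Among the 10 genes the fall was largest for DNAJB11 (−0.77 ± 0.07), HSPA5 (−0.72 ± 0.06), SDF2L1 (−0.71 ± 0.13) and DNAJC3 (−0.63 ± 0.07). It was −0.59 ± 0.08 for HYOU1, −0.47 ± 0.07 for CALR, −0.43 ± 0.08 for MANF and −0.40 ± 0.06 for HSP90B1. The change of −0.16 ± 0.06 for CANX (adjusted p = 0.03) was lost without DMSO 4 h replicate 2 (0.051) or 3 (0.12), or DMSO 24 h replicate 2 (0.11) or 3 (0.065), and with DESeq2 size factors (0.078), without the filter (0.089) or with the compared groups alone (0.18). CRELD2, at −0.13 ± 0.09, was not called (0.21). Library sizes without TMM moved the median of all genes in this comparison to −0.14 and CRELD2 to −0.25 (adjusted p = 0.0066). The fold changes at 24 h are thus taken against a DMSO level that was lower than at 4 h for the 8 other genes.

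These genes responded less in HEK293T. At 24 h the effect of tunicamycin in HEK293T was smaller than in OCI-AML3 for all 10 genes by an interaction test, beside 10.9% of all genes called in that direction and 26.8% in either. The log2 difference was −1.63 ± 0.12 for CRELD2, −1.14 ± 0.10 for DNAJB11, −1.11 ± 0.12 for MANF, −1.10 ± 0.17 for SDF2L1, −0.98 ± 0.09 for HSP90B1 and −0.94 ± 0.10 for CALR. For HYOU1 it was −0.88 ± 0.11, for HSPA5 −0.82 ± 0.08, for DNAJC3 −0.78 ± 0.10 and for CANX −0.25 ± 0.08. The call for CANX (adjusted p = 0.027) was lost without HEK293T tunicamycin replicate 1 (−0.24, adjusted p = 0.064) or replicate 2 (−0.25, adjusted p = 0.054), and without the filter (−0.25, 0.13). The median difference over the 10 genes was −0.96, beside 0.02 over all genes.

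**Figure D3:**
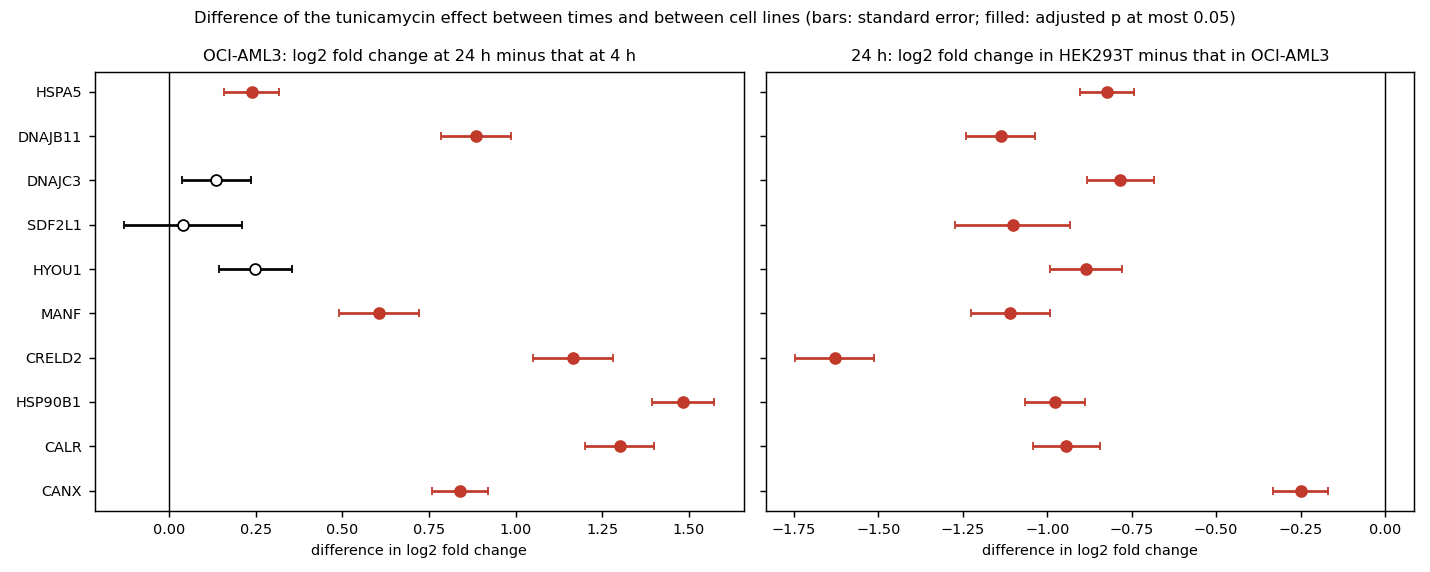
Difference of the tunicamycin effect (x axis, log2 scale, with bars for the standard error) for each gene, between 24 h and 4 h in OCI-AML3 (left) and between HEK293T and OCI-AML3 at 24 h (right). Filled points have an adjusted p of at most 0.05: 7 of 10 are filled and positive on the left, and all 10 are filled and negative on the right, from −0.25 for CANX to −1.63 for CRELD2.

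With DMSO alone the differences between the lines were smaller and went in both directions. In HEK293T, CALR was lower than in OCI-AML3 at 24 h (log2 difference −0.61 ± 0.07) and CRELD2 was lower (−0.40 ± 0.09), 2 of 10 genes beside 42.2% of all genes. HYOU1 was higher (0.43 ± 0.08), as were SDF2L1 (0.38 ± 0.13), DNAJC3 (0.21 ± 0.07), DNAJB11 (0.18 ± 0.07) and HSPA5 (0.16 ± 0.06), 5 of 10 beside 40.5%. DNAJB11 was not called without OCI-AML3 DMSO 24 h replicate 1 (0.18, adjusted p = 0.054) or 2 (0.13, adjusted p = 0.13). HSP90B1 (0.05 ± 0.06), CANX (0.09 ± 0.06) and MANF (−0.01 ± 0.08) were not called. CANX passed without OCI-AML3 DMSO 24 h replicate 1 (0.15, adjusted p = 0.044) or HEK293T DMSO replicate 1 (0.15, adjusted p = 0.05). It also passed without TMM (0.44, adjusted p = 7.7e-07), with TMM computed without the members (0.13, 0.044) and with TMM on the library sizes of all rows (0.13, 0.042), and HSP90B1 passed without TMM (0.39, adjusted p = 1.5e-05). These differences depended on the scaling and on the filter. Library sizes without TMM moved the median of all genes from −0.01 to 0.33 and MANF from −0.01 to 0.33 (adjusted p = 0.00015), and without a filter on low counts HSPA5 was at −0.02, HSP90B1 at −0.13 and CANX at −0.08. Of the calls, that of SDF2L1 was lost without the filter (adjusted p = 0.056) and that of CRELD2 without TMM (−0.06, 0.47). DNAJC3 lost its call in 4 settings (adjusted p from 0.053 to 0.91), HSPA5 in 4 (0.083 to 0.9) and DNAJB11 in 6 besides the libraries named (0.067 to 1).

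The order of the 3 tunicamycin groups took 4 forms. For HSPA5, HYOU1, DNAJC3 and SDF2L1 tunicamycin at 4 h gave the highest level, then tunicamycin at 24 h, then HEK293T with tunicamycin. For CALR and CRELD2 tunicamycin at 24 h came first, then 4 h, then HEK293T, and for DNAJB11 and MANF the libraries at 24 h and 4 h overlapped and those of HEK293T were below both. For HSP90B1 and CANX tunicamycin at 24 h came first and HEK293T lay above OCI-AML3 at 4 h. In all 10 genes the 3 tunicamycin groups were above the 4 groups without it. The share of all genes tested with this order was not counted. Untreated cells and DMSO at 4 h overlapped for 9 of 10 genes. The exception was HSPA5, whose DMSO libraries were all above the untreated ones with a difference that was not called (0.10 ± 0.06, adjusted p = 0.65). Such overlap was not counted over all genes either, so both counts only describe the 10 genes.

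Levels of different genes were compared per kilobase of the reference (MANE) transcript. With DMSO at 4 h CALR was the most abundant of the 10, at 599 CPM per kilobase, ahead of HSP90B1 at 268, CANX at 188, HSPA5 at 179 and MANF at 98.8. DNAJC3 was the lowest at 9.19. With tunicamycin at 4 h HSPA5 came first at 1752 CPM per kilobase, then CALR at 1440, HSP90B1 at 871, MANF at 694 and SDF2L1 at 629. By 24 h CALR was first at 2566, followed by HSP90B1 at 1844 and HSPA5 at 1251 CPM per kilobase. In HEK293T with tunicamycin HSP90B1 stood at 966, CALR at 873 and HSPA5 at 788 CPM per kilobase.

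The 10 genes together held 0.395% ± 0.004 (SD, n = 3) of all counts in untreated cells and 0.400% ± 0.008 after 4 h of DMSO. Tunicamycin brought this to 1.66% ± 0.02 at 4 h. At 24 h it was 0.273% ± 0.007 with DMSO and 1.98% ± 0.05 with tunicamycin, and in HEK293T 0.324% ± 0.003 and 1.25% ± 0.01. The mixture changed with time. HSPA5 made up 17.2% of the counts of the 10 genes after 4 h of DMSO and 40.0% after 4 h of tunicamycin, then 23.6% after 24 h, when HSP90B1 made up 24.7% and CALR 23.4%. CANX went from 27.2% with DMSO to 12.4% with tunicamycin at 24 h. These are shares of counts and not of molecules, since longer transcripts give more reads.

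**Figure D4:**
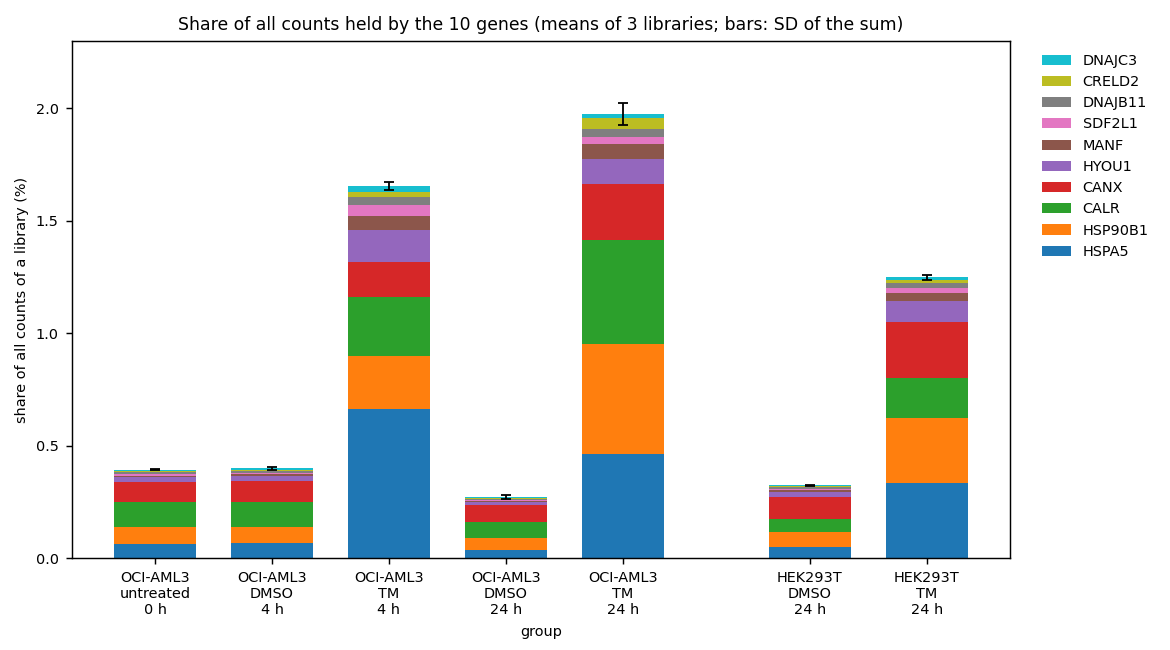
Share of all counts of a library (y axis, percent, from 0) held by each of the 10 genes, stacked by group (x axis, means of 3 libraries), with a bar for the SD of the sum. The stack grows from 0.400% to 1.66% with 4 h of tunicamycin, where HSPA5 is the largest block, and to 1.98% at 24 h, where the blocks of HSPA5, HSP90B1 and CALR are about equal.

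Each ER gene was set beside a relative with a like sequence or function, in the cytosol or in the ER itself. HSPA8, the constitutive Hsp70 of the cytosol, was at 3464, 2686 and 3067 CPM after 4 h of DMSO and at 834, 818 and 777 CPM after 4 h of tunicamycin. It fell by 1.92 ± 0.08 on the log2 scale at 4 h, with values of −0.75 ± 0.08 at 24 h and −0.55 ± 0.08 in HEK293T that were below 2-fold. HSP90AB1, the cytosolic Hsp90, changed by −0.26 ± 0.06, −0.87 ± 0.06 and −0.62 ± 0.06. HSPH1, a cytosolic exchange factor, changed by −0.70 ± 0.08, −0.63 ± 0.08 and −0.65 ± 0.08, and DNAJB1, a cytosolic J protein, by −0.58 ± 0.08, −0.48 ± 0.08 and −0.68 ± 0.08. The changes of these 3 genes had an adjusted p of at most 0.0028 but stayed within 2-fold. DNAJC7, a cytosolic J protein with the same kind of repeats as DNAJC3, was at 0.35 ± 0.06 (adjusted p = 0.00011), −0.05 ± 0.06 (0.5) and −0.04 ± 0.06 (0.69). SDF2, the close relative of SDF2L1 and itself an ER protein, was at −0.07 ± 0.10 (0.6), −0.12 ± 0.10 (0.34) and −0.06 ± 0.10 (0.72), at levels of 34.3 to 47.3 CPM in the OCI-AML3 libraries treated with either agent.

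The 3 other tested relatives are ER proteins as well. CRELD1, the membrane-bound relative of CRELD2, rose in all 3 comparisons by 1.80 ± 0.08, 2.99 ± 0.08 and 1.76 ± 0.08. It went from 22.4, 23.0 and 21.5 CPM to 192, 177 and 163 CPM at 24 h in OCI-AML3. CDNF, the relative of MANF, was close to the lower limit of the test (1.58, 0.67 and 1.54 CPM with DMSO at 24 h and 2.11, 2.83 and 2.61 CPM with tunicamycin). Its change at 24 h of 1.008 ± 0.29 (adjusted p = 0.0054) fell below 2-fold without DMSO 24 h replicate 2 (0.73) or tunicamycin 24 h replicate 2 (0.98) and without the filter (0.99, adjusted p = 0.018), and its changes at 4 h (−0.03 ± 0.32) and in HEK293T (−0.06 ± 0.34) were not called. CLGN, the relative of CANX best known from testis, held 1 count in all over the 3 DMSO libraries at each time in OCI-AML3, and 30 and 52 counts with tunicamycin at 4 h and 24 h. The ratios of its CPM were 31.1 (95% exact interval 5.17 to 1270) and 47.4 (8.14 to 1910), intervals that cover counting error only. In HEK293T CLGN was at 26.0 ± 3.0 CPM with DMSO and 43.2 ± 3.2 CPM with tunicamycin (SD, n = 3), under 2-fold. CALR3 was too low to be tested. CLGN passed the filter only through HEK293T and 2 of the OCI-AML3 libraries with 24 h of tunicamycin, so it is left out of the counts. Of the 8 other relatives tested, 1 was called higher and 1 lower at 4 h, 2 and 0 at 24 h, and 1 and 0 in HEK293T, beside 3.45% and 1.47%, 4.05% and 2.26%, and 1.58% and 0.55% of all genes. The count at 24 h includes CDNF, whose call was lost in the settings named above.

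**Figure D5:**
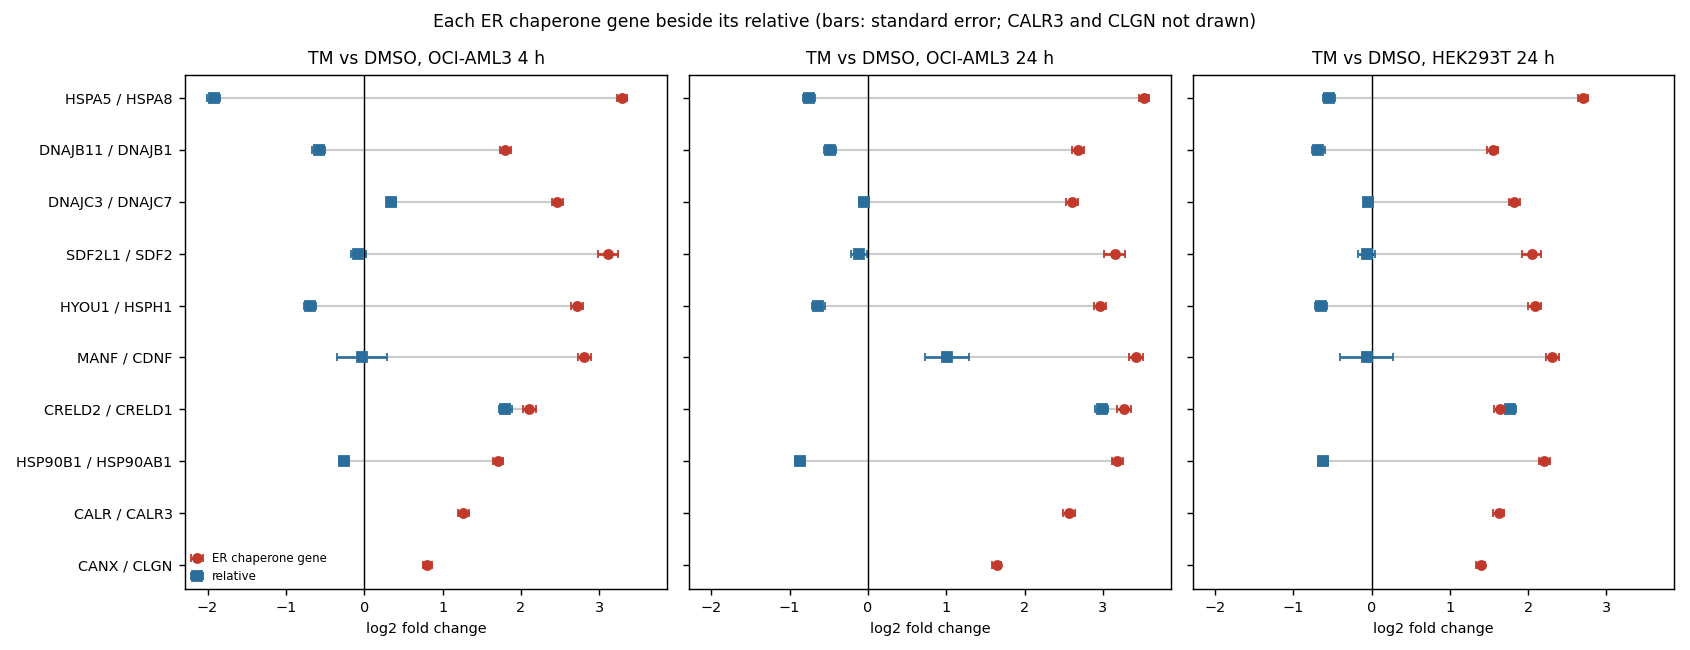
Log2 fold change of tunicamycin against DMSO (x axis, bars for the standard error) for each of the 10 genes (red circles) and its relative (blue squares), joined by a grey line, in the 3 comparisons. The red circles all lie right of 0, while HSPA8, HSP90AB1, HSPH1 and DNAJB1 lie left of 0 in all 3 panels and CRELD1 lies beside CRELD2 (CALR3 was not tested and CLGN, with 1 count in the OCI-AML3 DMSO groups, is not drawn).

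Other genes of the same pathway were counted by lists, to be read beside the shares of all genes called higher (3.45%, 4.05% and 1.58%) and lower (1.47%, 2.26% and 0.55%). Of 9 further genes of the HSPA5 cycle, 3 were called higher at 4 h, 2 at 24 h and 5 in HEK293T, and none lower, with medians of 0.49, 0.78 and 1.09. DNAJB9, a J protein that acts on the UPR sensor IRE1, was at 3.73 ± 0.11, 2.66 ± 0.11 and 2.41 ± 0.10. FICD, the enzyme that switches HSPA5 off and on by AMPylation, was at 3.47 ± 0.14, 2.73 ± 0.16 and 1.88 ± 0.14, and HSPA13, a microsomal Hsp70, was at 1.48 ± 0.11, 0.88 ± 0.11 and 1.505 ± 0.11. The 2 other genes called in HEK293T, named here after their values were seen, were DNAJC10, a J protein with disulphide reductase activity (1.17 ± 0.09), and SEC63, a J protein of the translocation channel (1.09 ± 0.08). Of 7 genes tested in the calnexin and calreticulin cycle, CLGN being left out as above, 0, 2 and 1 were called higher and none lower, with medians of 0.11, 0.45 and 0.58. The 2 were PDIA3, the disulphide isomerase that works with both lectins (0.95 ± 0.06, 2.37 ± 0.06 and 1.39 ± 0.06), and UGGT1, the sensor that returns unfolded glycoproteins to the lectins (0.65 ± 0.07, 1.49 ± 0.07 and 0.58 ± 0.07). None of 7 client-specific chaperones (such as SERPINH1 for collagen) and none of 3 KDEL receptors, which return escaped ER proteins, was called in these 3 comparisons. The medians of the client-specific chaperones were −0.31, −0.11 and 0.09, the last 2 unstable: that at 24 h ran from −0.14 to 0.07 over the settings (0.07 without tunicamycin 24 h replicate 3) and that in HEK293T from 0.03 to 0.19 (without tunicamycin replicate 3 and without replicate 1). The medians of the receptors were 0.32, 0.47 and 0.54, and that at 4 h was 0.09 without DMSO 4 h replicate 2 and 0.10 without tunicamycin 4 h replicate 2. The receptors stayed under 2-fold, at 0.07 to 0.47, 0.17 to 0.70 and 0.39 to 0.60. In edgeR 1, 2 and 3 of them had an adjusted p of at most 0.05. The share of all genes past that p alone is not given here.

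Of 13 UPR sensors and factors, 5 were called higher at 4 h and 3 in each comparison at 24 h, with none lower and medians of 0.21, 0.20 and 0.46. Those farthest from 0 at 4 h were DDIT3 (CHOP, 5.36 ± 0.12), XBP1 (1.98 ± 0.08) and ERN1 (IRE1, 1.84 ± 0.11). At 24 h the 3 were DDIT3, XBP1 and EIF2AK3 (PERK), the last with 1.47 ± 0.09 in OCI-AML3 and 1.31 ± 0.09 in HEK293T. At 4 h EIF2AK3 (1.64 ± 0.09) and ATF4 (1.010 ± 0.08), named after their values were seen, made up the 5. The count at 4 h was 4 without DMSO 4 h replicate 2 or 3, without TMM or without the filter. At 24 h in OCI-AML3 the median was 0.32 without replicate 2 of DMSO or of tunicamycin, and the count was 4 without tunicamycin replicate 3. Of 14 cytosolic chaperones none was called higher, 3 were called lower at 4 h, 0 at 24 h and 2 in HEK293T (1.47%, 2.26% and 0.55% of all genes), and the medians were −0.46, −0.56 and −0.58. At 24 h in OCI-AML3 the changes of this list ran from −0.87 to −0.12, below 0 but within 2-fold. HSPA8 and the stress-inducible HSPA1A (−1.95 ± 0.13) and HSPA1B (−1.495 ± 0.16) were lower at 4 h. HSPA1A (−1.28 ± 0.27) and HSPA1B (−1.64 ± 0.14) were lower in HEK293T. HSPA1A and HSPA1B are near-identical copies, so that reads can be divided between them and each value is uncertain. Of 6 mitochondrial chaperones, HSPE1 was lower at 4 h (−1.30 ± 0.09) and at 24 h (−1.26 ± 0.09), and none was called in HEK293T. The count at 24 h was 2 without tunicamycin 24 h replicate 1, with limma voom and without the filter.

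Across the 21 libraries the 10 genes followed each other closely, as a description of libraries that share the treatment. The mean Pearson correlation of a member with the other 9, on log2 CPM, ranged from 0.888 for CANX to 0.966 for MANF. Outside the set, the 5 genes whose log2 CPM was most like the mean of the 10 scaled members were PDIA4, an ER disulphide isomerase (0.996), ENSG00000255114 (0.985), which lies across HYOU1, ATP2A2, the calcium pump of the ER (0.976), UGDH, an enzyme that makes UDP-glucuronate (0.975), and ATP6V1C2, a subunit of a proton pump (0.970). With Spearman's correlation PDIA4 and ENSG00000255114 were again the first of the 5, and the other three were TMEM50B, PDIA3 and SLC39A14.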

How the data were processed

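Polyadenylated RNA of 21 samples was sequenced by the authors, 3 per group. Per the labels and methods, reads were trimmed with seqtk, aligned with STAR to GRCh38 and quantified with RSEM, and the deposited table holds the expected counts of 60671 genes, not normalised. Whether counting used strand is not given in the sources used here. Symbols and coordinates were taken from GENCODE release 44 (60401 IDs matched) and promoters from RefSeq (GRCh38.p14).

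Expected counts were rounded to whole numbers (3.54 to 4.22% were not whole). All 21 libraries (13838480 to 19961819 counts) entered a single fit of 7 group means with edgeR 4.0.16 in R 4.3.3 (TMM, quasi-likelihood test, 14 residual degrees of freedom), on the 14012 genes that reached 1 CPM in 8 or more libraries. The study used limma voom, which was run as an alternative (limma 3.58.1), as was DESeq2 1.42.0. The other alternatives were other scalings and filters, a replicate block, the compared groups alone and leaving out each library. TMM on the library sizes of all rows, and the list of other genes with the promoter elements, were added after seeing the data. P-values were adjusted over all genes tested by the method of Benjamini and Hochberg. A change with tunicamycin had to pass an adjusted p of 0.05 and exceed 2-fold, whereas other comparisons needed only the adjusted p. The fit was tested on simulated counts.

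Members and lists were chosen with earlier results of these data known. Named genes are all 10 members, their relatives, up to 3 called genes per list and direction that were farthest from 0, and the 5 genes most correlated with the members. Genes named outside this rule, those with promoter elements among them, were chosen after their values were seen. Proteins were not analysed here.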

Additional observations from a re-analysis of the deposited data

Results flagged for a closer look

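The effect of tunicamycin differed between groups, by an interaction test in edgeR with adjusted p of at most 0.05, for 17 of the 20 differences tested. Of all genes 35.3% were called in either direction between times and 26.8% between lines. The call for HSPA5 between times was lost without tunicamycin 4 h replicate 2 or 3, without the filter and with the compared groups alone, and that for CANX between lines without HEK293T tunicamycin replicate 1 or 2 and without the filter. Between 24 h and 4 h in OCI-AML3 the difference on the log2 scale was 1.48 for HSP90B1, 1.3 for CALR, 1.17 for CRELD2, 0.88 for DNAJB11, 0.84 for CANX, 0.61 for MANF and 0.24 for HSPA5, with larger effects at 24 h. Between HEK293T and OCI-AML3 at 24 h it was −1.63 for CRELD2, −1.14 for DNAJB11, −1.11 for MANF, −1.10 for SDF2L1, −0.98 for HSP90B1, −0.94 for CALR, −0.88 for HYOU1, −0.82 for HSPA5, −0.78 for DNAJC3 and −0.25 for CANX, with smaller effects in HEK293T. In each comparison all 3 tunicamycin libraries were above all 3 DMSO libraries of the same line and time. The line difference cannot be told apart from that of the media.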

How the results depend on the processing

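All 480 alternative values of the 10 genes in the 3 comparisons of tunicamycin with DMSO kept their direction and their side of the threshold, and the counts stayed at 9, 10 and 10, also with the replicate block. In their deviations from the group mean, same-numbered samples of 2 groups correlated from −0.1393 to 0.1992. Differently numbered samples correlated from −0.2328 to 0.218, so the numbers were not taken to pair samples. Over all log2 differences of single genes, 2467 of 2568 alternative values were the same in this sense, 34 lost and 25 gained a call and 42 changed sign. In the comparison of lines with DMSO the count of members called was 7, beside 11590 of all genes. It became 3 without a filter, 4 with a filter of 1 CPM in 3 samples and 4 with the replicate block, and reached 9 in another setting. Over the other settings the genes called over the whole table numbered from 10900 to 15657. Without a filter HSPA5 was at −0.02267, HSP90B1 at −0.1345 and CANX at −0.08438, while HSP90B1 was at −0.01348 with the other filter. MANF in that comparison was at 0.3325 without TMM, 0.0224 with TMM computed without the members and 0.02356 with TMM on the sizes of all rows, and from −0.02115 to 0.06396 when a library was left out. Between DMSO at 4 h and untreated cells, where no member was called, DNAJB11 was at 0.01679 without TMM, 0.008684 with TMM without the members, 0.006604 with the other filter, 0.008623 with TMM on all rows and 0.01093 with the compared groups alone. Leaving out a library there gave −0.04071 to 0.04006 for DNAJB11, −0.004187 to 0.08766 for HYOU1, −0.08864 to 0.006142 for CALR, −0.1622 to 0.04218 for SDF2L1, −0.06295 to 0.03119 for DNAJC3 and −0.05725 to 0.0868 for MANF. It gave −0.02327 to 0.2141 for the time difference of SDF2L1. Among the relatives, DNAJC7 at 24 h was at 0.02935, 0.0009417 and 0.0007277 under the 3 scalings and at −0.03751 to 0.04015 by library. SDF2 ranged from −0.1583 to 0.07257 at 4 h and from −0.1264 to 0.02438 at 24 h, and CDNF from −0.1306 to 0.08227 at 4 h and from −0.2478 to 0.09909 in HEK293T. The cause was not tested. With the genes tested as denominator, the members' share of counts was 0.336% and 1.296% in HEK293T with DMSO and tunicamycin. Of the 5 genes most like the members, 2 were shared with Spearman's correlation. Genes called over the whole table with tunicamycin numbered 690, 885 and 298, and from 673 to 1033, 871 to 1401 and 284 to 514 in other settings. Depth limits CLGN, CDNF and CALR3, which were near or under 1 CPM in some groups.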

Other observations

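Outside the 10 genes, 37 genes had an exact ERSE or ERSE-II in the same RefSeq promoter window, a list drawn up after the data were seen, and 21 of them were tested. The genes named from it were also chosen after their values were seen. Of these, 8 were called higher with tunicamycin at 4 h, 7 at 24 h and 7 in HEK293T, beside 3.45%, 4.05% and 1.58% of all genes, and the medians were 0.58, 0.54 and 0.38 on the log2 scale. HERPUD1, which takes part in ER-associated degradation, was at 3.04 ± 0.07, 1.99 ± 0.07 and 3.33 ± 0.07. ERO1B, an oxidase that recharges disulphide isomerases, was at 2.45, 2.40 and 1.66, and PDIA6, a disulphide isomerase, at 1.06, 1.94 and 1.465. ALG12, which shares the element of CRELD2, was at 1.00, 1.07 and 0.75, beside 2.11, 3.27 and 1.64 for CRELD2. RUVBL2, part of chromatin remodelling complexes, was called lower at 24 h (−1.03), as were 2.26% of all genes.

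The genes most like the members were chosen on these 21 libraries, so their changes with tunicamycin are given as a description only. PDIA4 was at 2.62, 3.10 and 2.50 at 4 h, 24 h and in HEK293T, UGDH at 1.57, 1.94 and 0.97, ATP6V1C2 at 1.09, 1.99 and 1.54, and ATP2A2 at 1.01, 1.35 and 0.66.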
